A study of Mus musculus with 13 samples.

Results

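The immunoglobulin constant and variable genes of the mouse aorta were examined in 13 AngII-infused ApoE -/- mice. They were chosen by the annotation in the deposited table as all genes with the biotype IG_C_gene or IG_V_gene, which gave 231 of 54532 genes. The set was selected for study on measured values of these same aortas, because 2 aortas were known to be rich in immunoglobulin RNA. Those levels are therefore given as a description: the 2 aortas as a pair were not tested against the rest, and the tests between the treatment groups are no independent evidence. The 231 genes comprised 13 constant and 218 variable genes, with 8 constant and 113 variable genes at the heavy chain locus on chromosome 12, 1 and 102 at the kappa locus on chromosome 6, and 4 and 3 at the lambda locus on chromosome 16.

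All 13 mice lacked ApoE and carried a subcutaneous pump that delivered AngII for 28 days, 1000 ng/kg/min, from the age of 10 weeks. The 6 Ad-sham mice received adenovirus without the mFam3a insert by tail vein, and the 7 Ad-FAM3A mice received the same vector with mFam3a under an EF1A promoter, which is not restricted to a cell type, with 5 injections in all. Each aorta was 1 library, and the sex of each mouse was not given in the sources used here. Fam3a itself ranged from 17.7 to 29.2 counts per 1000000 counts of the library (CPM) in Ad-sham and from 19.98 to 29.2 CPM in Ad-FAM3A aortas, so the groups overlapped for the overexpressed gene.

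An antibody consists of paired heavy and light chains. During B cell development a variable gene is joined to short D and J segments, or to a J segment alone in light chains, and the product is transcribed together with a constant gene. The variable exon encodes most of the antigen-binding surface, and the heavy chain constant gene sets the class of the antibody. Naive B cells make IgM and IgD, and after activation they can switch to IgG, IgE or IgA while keeping the same variable exon. Plasma cells secrete antibody and hold very large amounts of these transcripts. Organised B cell clusters are known from the outer layer of atherosclerotic and aneurysmal aortas and from the lymph nodes that lie along the vessel.

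The IgG subclasses are told apart by their constant exons, among which the hinge is short and divergent. The 4 hinge exons are shown whole because the subclass values below depend on reads being assigned to the right gene. They are exon 2 of each gene in the GENCODE M21 annotation of GRCm38, all on the minus strand of chromosome 12, at chr12:113329844-113329882, chr12:113307261-113307326, chr12:113288263-113288325 and chr12:113360529-113360576 in the order printed.
Ighg1: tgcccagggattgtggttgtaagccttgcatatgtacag
Ighg2b: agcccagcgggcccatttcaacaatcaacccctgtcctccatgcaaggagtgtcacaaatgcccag
Ighg2c: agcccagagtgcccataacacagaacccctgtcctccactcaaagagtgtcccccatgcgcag
Ighg3: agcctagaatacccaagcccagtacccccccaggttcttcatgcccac
The lengths were 39, 66, 63 and 48 bases. Over the whole secreted transcripts, 5.26% of the 50-base windows of Ighg2b also occurred in Ighg2c, and no window of Ighg1 or Ighg3 occurred in another IgG gene. Over the longer transcripts, 0.411% of the windows of Ighg1 and 1.65% of those of Ighg3 also occurred in Ighg2b.

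The variable genes are shown by the last 120 bases of their variable exon for the genes that led an aorta discussed below. Capitals mark the last in-frame cysteine codon, after which the third antigen-contacting loop begins. Ighv1-53 lies at chr12:115158403-115158522, Ighv3-6 at chr12:114288152-114288271, Ighv5-9 at chr12:113661769-113661888 and Ighv1-9 at chr12:114583569-114583688, all on the minus strand. Igkv3-4 lies on the plus strand at chr6:70672258-70672377, and Igkv13-85 at chr6:68930269-68930388 and Igkv1-88 at chr6:68862265-68862384 lie on the minus strand.
Ighv1-53: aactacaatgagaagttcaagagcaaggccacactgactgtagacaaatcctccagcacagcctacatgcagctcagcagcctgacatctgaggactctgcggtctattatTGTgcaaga
Ighv3-6: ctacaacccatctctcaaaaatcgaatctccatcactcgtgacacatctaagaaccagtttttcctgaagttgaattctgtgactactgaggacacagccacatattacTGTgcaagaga
Ighv5-9: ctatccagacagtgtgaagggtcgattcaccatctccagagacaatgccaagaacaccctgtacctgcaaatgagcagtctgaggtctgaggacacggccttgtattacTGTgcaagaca
Ighv1-9: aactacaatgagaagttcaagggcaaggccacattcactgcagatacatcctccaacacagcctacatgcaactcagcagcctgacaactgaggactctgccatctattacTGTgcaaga
Igkv3-4: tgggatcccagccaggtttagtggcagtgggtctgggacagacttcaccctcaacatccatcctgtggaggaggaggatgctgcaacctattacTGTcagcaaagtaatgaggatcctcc
Igkv13-85: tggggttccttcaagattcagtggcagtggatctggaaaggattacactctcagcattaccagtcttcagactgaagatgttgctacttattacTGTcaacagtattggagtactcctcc
Igkv1-88: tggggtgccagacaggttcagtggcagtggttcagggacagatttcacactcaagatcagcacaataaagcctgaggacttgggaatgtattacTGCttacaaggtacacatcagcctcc
The 2 genes of the Ighv1 family, Ighv1-53 and Ighv1-9, were identical at 90.0% of these positions, and Ighv3-6 and Ighv5-9 at 61.7%. Variable genes of a family can therefore share reads. The median share of 50-base windows found in another variable gene was 21.9% over the 113 heavy chain genes and 25.2% over the 102 kappa genes. Among the genes printed it was 57.6% for Ighv1-53, 48.3% for Igkv13-85 (all with Igkv13-84), 34.1% for Igkv3-4, 13.8% for Ighv5-9, 3.32% for Ighv3-6 and 0.662% for Ighv1-9, and Igkv1-88 had no such window. Single-gene values of the first 3 are accordingly less certain than those of the others.

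Immunoglobulin RNA was abundant in 2 of the 13 aortas. It made up 3.40% of all counts in Ad-FAM3A6 (517099 counts) and 0.954% in Ad-FAM3A7 (152835 counts). In the other 11 aortas it ranged from 0.00601% in Ad-FAM3A4 to 0.0430% in Ad-sham1, with a median of 0.0157%. The values of both Ad-FAM3A6 and Ad-FAM3A7 were thus 79.2-fold and 22.2-fold above the highest of the others. The 6 Ad-sham aortas lay between 0.00980% and 0.0430% and Ad-FAM3A1 to Ad-FAM3A5 between 0.00601% and 0.0247%, so that the remaining Ad-FAM3A aortas overlapped with the Ad-sham aortas. Total counts ranged from 14481179 to 19797407 over the 13 aortas, with 15197014 in Ad-FAM3A6 and 16013910 in Ad-FAM3A7. In whole tissue, more cells of a type and more RNA per cell cannot be told apart.

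**Figure D1:**
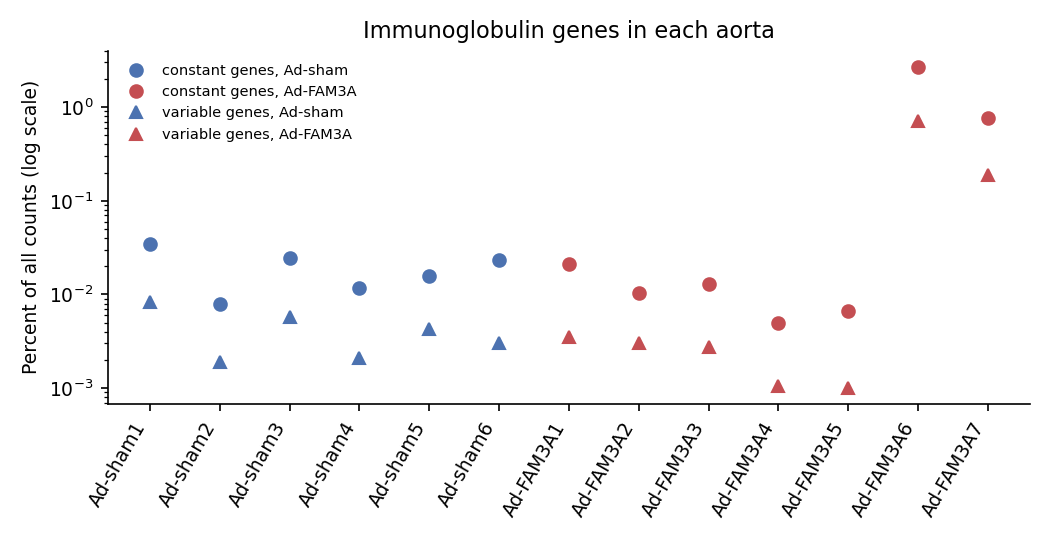
Share of all counts assigned to immunoglobulin constant genes (circles) and variable genes (triangles) in each aorta, on a log axis. Ad-FAM3A6 and Ad-FAM3A7 lie above all other aortas for both kinds of gene, whose immunoglobulin share reaches at most 0.0430% elsewhere.

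The difference ran through nearly the whole gene set. Of the 231 genes, 214 had at least 1 count in some aorta and 17 had none in any. A count was found for 212 genes in Ad-FAM3A6 or Ad-FAM3A7 and for 191 in the other 11 aortas together. The highest CPM of the 214 genes was in Ad-FAM3A6 for 167, in Ad-FAM3A7 for 40 and in another aorta for 7. Both Ad-FAM3A6 and Ad-FAM3A7 exceeded all other 11 aortas in 173 genes. The share of all genes that did so is not given here. The 2 aortas were picked for their immunoglobulin level, so these counts are a description. The 7 exceptions included Igkv13-85 and Ighv5-9, highest in Ad-sham1 with 394 and 391 counts, and Igkv18-36, which had 24 counts in Ad-sham2 and 2 counts in both Ad-FAM3A6 and Ad-FAM3A7. Only 16 genes had a count in every aorta.

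Among the heavy chain constant genes, Ighm, which encodes the heavy chain of IgM, reached 7104 CPM in Ad-FAM3A6 and, less, 2322 CPM in Ad-FAM3A7. In Ad-sham aortas it was 211, 43.2, 141, 65.9, 69.3 and 106 CPM in order of number, and in Ad-FAM3A1 to Ad-FAM3A5 it was 92.5, 32.3, 56.0, 27.9 and 34.2 CPM. Every aorta therefore held Ighm transcripts well above the floor of 3 counts, which equals 0.152 to 0.207 CPM, and Ad-sham1 was the highest outside the 2 rich aortas. Ighd, the constant gene of IgD, which naive B cells carry with IgM, was 220 and 123 CPM in the 2 rich aortas, against 2.49 to 16.5 CPM in the others. This excess over the highest other aorta, 13.3-fold and 7.46-fold, was smaller than the 33.7-fold and 11.02-fold of Ighm.

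For 3 of the 4 IgG genes, Ighg2c, Ighg2b and Ighg1, both rich aortas exceeded all others by more than they did for Ighm. Ighg2c, which encodes the IgG2c heavy chain and stands in the C57BL/6 genome in place of Ighg2a, was 5979 and 1303 CPM in these aortas. Elsewhere it was 1.12, 0.760, 2.69, 2.27, 11.7 and 11.6 CPM in Ad-sham1 to Ad-sham6 and 9.80, 3.56, 6.35, 0.245 and 0.137 CPM in Ad-FAM3A1 to Ad-FAM3A5. The rich aortas thus exceeded the highest of the others 512-fold and 112-fold. Ighg2b, the IgG2b gene, was 2292 and 822 CPM in the rich aortas and at most 18.2 CPM, in Ad-FAM3A3, in the rest. Ighg1, the IgG1 gene, was 802 and 130 CPM, and at most 5.35 CPM, in Ad-sham5, in the rest.

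Ighg3, which encodes IgG3, was the constant gene in which the 2 rich aortas differed most. It was 671 CPM in Ad-FAM3A6 from 10200 counts and 3.93 CPM in Ad-FAM3A7 from 63 counts, a 171-fold difference, while the other constant genes with at least 10 counts in both differed 1.79-fold to 8.15-fold. With 100 counts, Ad-FAM3A2 had a higher Ighg3 level, 6.03 CPM, than Ad-FAM3A7. Ad-sham1, with the most immunoglobulin RNA of the other 11 aortas, had 0 Ighg3 counts, which allows up to 0.186 CPM.

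Igha and Ighe differed less. Igha, the IgA gene, was 235 and 78.9 CPM in the rich aortas and 1.64 to 25.3 CPM in the others, the highest being Ad-FAM3A1. Ighe, the IgE gene, gave 80 counts in Ad-FAM3A6, 13 in Ad-FAM3A7, 24 in Ad-sham5 and at most 5 in the others. Ad-sham5 was therefore above Ad-FAM3A7 for this gene, at 1.21 against 0.812 CPM.

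**Figure D2:**
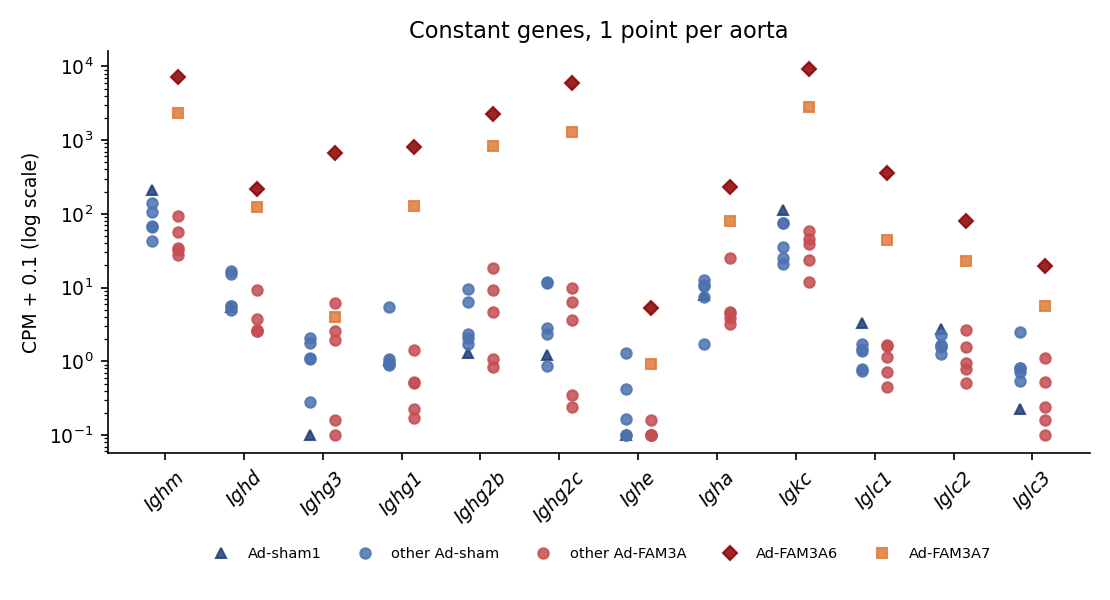
CPM + 0.1 of 12 constant genes on a log axis, with Ad-sham aortas drawn left and Ad-FAM3A aortas right of each gene's position. Diamonds (Ad-FAM3A6) and squares (Ad-FAM3A7) lie above all others except at Ighg3 and Ighe, where Ad-FAM3A7 lies within their range; Iglc4, with 2 counts in all, is not drawn.

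Class shares were computed as each gene's counts per kilobase of its deposited length over the sum of the heavy chain constant genes, with 95% Wilson intervals that cover counting error only. In Ad-FAM3A6, IgG genes made up 59.9% of heavy chain constant expression (59.7 to 60.1) and IgM 38.0% (37.8 to 38.2). In Ad-FAM3A7 the IgG share was 50.3% (49.9 to 50.6) and the IgM share 46.2% (45.8 to 46.5). IgG was thus the largest class in both per kilobase. On counts as deposited this held in Ad-FAM3A6, with 56.3% IgG and 41.0% IgM, and turned in Ad-FAM3A7, with 47.2% IgG and 48.5% IgM. In the other 11 aortas IgM was the largest class in each, at 60.4% to 93.8%, and IgG ranged from 1.38% in Ad-sham1 to 27.6% in Ad-FAM3A3.

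IgG2c alone made up 45.5% of heavy chain constant expression in Ad-FAM3A6 and 36.8% in Ad-FAM3A7, compared with at most 14.5%, in Ad-sham5, in the rest. Within IgG, however, IgG2c took 75.9% in Ad-FAM3A6 and 73.3% in Ad-FAM3A7, while the others ranged from 21.2% to 74.3% (70.2 to 77.9 in Ad-sham5, the highest). Ad-FAM3A7 lay within that range, and Ad-FAM3A6 above it but inside the interval of Ad-sham5. IgG2b followed with 8.63% and 11.5% of heavy chain constant expression, IgG1 with 3.12% and 1.88%, and IgG3 with 2.69% and 0.0587%. The deposited length of Ighg2c, 1326 bases, is shorter than those of Ighg2b, Ighg1 and Ighg3, 2678, 2592 and 2512 bases, which raises its share per kilobase. On counts as deposited, IgG2c was 34.5% and 27.2%, and per kilobase of the shortest annotated transcript, the secreted form, it was 38.3% and 30.7%. IgG2b was 13.2% and 17.2% on counts and 14.6% and 19.3% per kilobase of the shortest transcript, and Ad-FAM3A3 was above both rich aortas for IgG2b on each scale. IgG1 was 4.63% and 2.71% on counts.

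IgD and IgA took small shares in the rich aortas. The IgD share was 1.17% and 2.43%, compared with 2.36% to 14.3% elsewhere, so that Ad-FAM3A6 was below all others and Ad-FAM3A7 just above Ad-sham1. The IgA share was 0.887% and 1.11%, below the 2.15% to 12.5% of all other aortas. On counts as deposited the IgA share was 1.36% and 1.65%, against 2.97% to 16.9%, and per kilobase of the shortest transcript the IgD share was 1.96% and 4.02%, against 4.22% to 22.3%, so that Ad-FAM3A7 was then also below Ad-sham1.

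**Figure D3:**
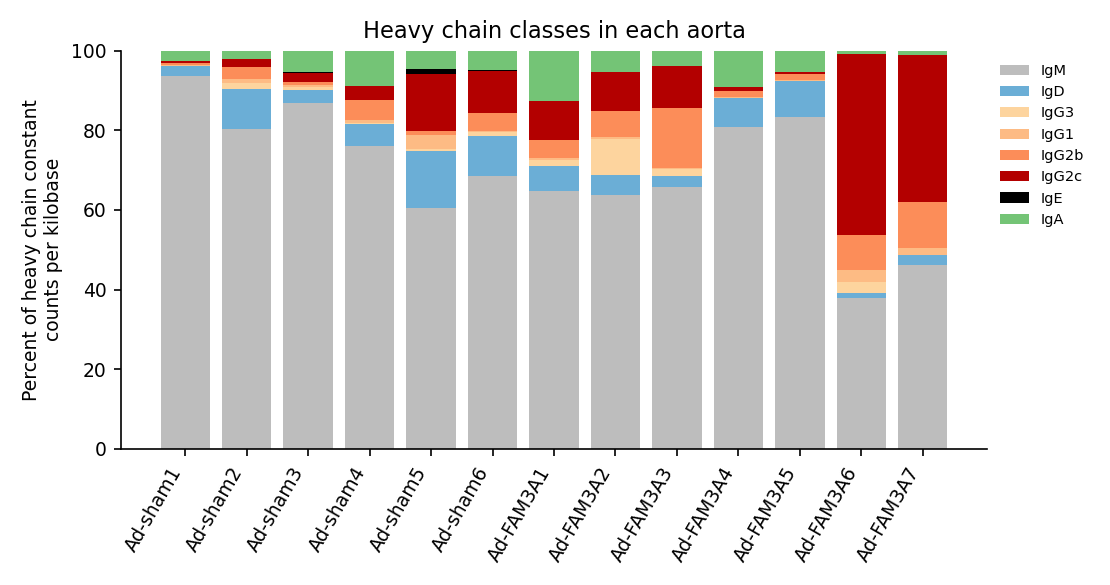
Stacked shares of the heavy chain classes in each aorta, in percent of the counts per kilobase of the 8 heavy chain constant genes. IgM (grey) is the largest class in 11 aortas, and IgG (orange to dark red) in Ad-FAM3A6 and Ad-FAM3A7, where IgG2c takes 45.5% and 36.8%; on counts without the length scaling IgM is the larger in Ad-FAM3A7, at 48.5% against 47.2%.

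Between the treatment groups the class shares overlapped. The IgM share averaged 77.7% ± 12.1 in Ad-sham (SD, n = 6) and 63.2% ± 16.6 in Ad-FAM3A aortas (n = 7), and the IgG share 9.79% ± 6.97 and 26.5% ± 22.1. Exact permutation of the group labels over every split into 6 and 7 aortas gave two-sided p values of 0.113 for IgM and 0.103 for IgG, or 0.339 for both after Benjamini-Hochberg adjustment over the 6 composition values tested. Of the 7 Ad-FAM3A aortas, 2 exceeded the median of the Ad-sham aortas for IgM and 5 for IgG. Without Ad-FAM3A6 and Ad-FAM3A7 the differences shrank from -14.4 to -5.96 percentage points for IgM and from 16.7 to 5.21 for IgG. The IgA share was 4.70% ± 2.38 against 5.41% ± 4.19, with an exact permutation p of 0.744, and 4 of 7 exceeded that median.

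The light chains were mostly kappa throughout. Igkc, the only kappa constant gene, had 139795 counts in Ad-FAM3A6 (9199 CPM) and 44571 in Ad-FAM3A7 (2783 CPM), against 359 to 1845 counts in Ad-sham and 194 to 971 in Ad-FAM3A1 to Ad-FAM3A5. Kappa made up 94.7% of light chain constant expression per kilobase in Ad-FAM3A6 (94.6 to 94.8) and 97.3% in Ad-FAM3A7 (97.1 to 97.4). The other 11 aortas ranged from 85.1% in Ad-sham5 to 98.1% in Ad-FAM3A3, and both rich aortas lay inside that range. The kappa share averaged 91.5% ± 4.43 in Ad-sham (n = 6) and 93.5% ± 3.597 in Ad-FAM3A (n = 7), with an exact permutation p of 0.379 and an adjusted p of 0.568. Again 4 of 7 Ad-FAM3A aortas exceeded the median of the Ad-sham aortas.

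The lambda constant genes differed in balance. Iglc1, the constant gene of lambda1 chains, was 361 and 44.3 CPM in the rich aortas and 0.345 to 3.16 CPM in the rest. Iglc2 was 79.9 and 22.7 CPM and Iglc3 was 19.3 and 5.56 CPM, against maxima of 2.61 and 2.37 CPM elsewhere. Lambda1 took 82.1% of lambda constant expression in Ad-FAM3A6 (81.2 to 82.9) and 66.4% in Ad-FAM3A7 (63.8 to 69.0), compared with 25.4% to 61.4% in the others, which rested on only 11 to 117 lambda counts each. Iglc4 had 2 counts, both in Ad-FAM3A6.

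Many variable genes were in use in the rich aortas. Ad-FAM3A6 had counts for 96 of the 113 heavy chain and 97 of the 102 kappa variable genes, with at least 10 counts for 83 of each. Ad-FAM3A7 had counts for 93 and 91, with at least 10 for 73 and 74. In the other aortas 19 to 47 heavy chain and 28 to 61 kappa genes were counted, from only 48 to 528 and 87 to 722 variable gene counts, against 46281 and 53934 in Ad-FAM3A6 and 12653 and 16490 in Ad-FAM3A7. As detection follows depth, diversity was measured by the effective number of genes, the inverse Simpson index corrected for sampling. It equals the number of genes when all are used alike, and falls as a few take most counts.

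The effective number of heavy chain variable genes was 29.4 in Ad-FAM3A6 and 23.4 in Ad-FAM3A7. It was 16.8, 23.1, 21.5, 12.6 and 13.8 in Ad-sham2 to Ad-sham6 and 16.8, 18.3, 18.2 and 31.3 in Ad-FAM3A1, Ad-FAM3A2, Ad-FAM3A4 and Ad-FAM3A5, but 1.82 in Ad-sham1 and 4.31 in Ad-FAM3A3. The value of Ad-FAM3A5 rests on 48 counts over 24 genes, which the corrected index exceeds. On counts per kilobase and without the sampling correction it was 19.3, below the 28.9 and 23.0 of the rich aortas. As scaling and correction changed together, this fall cannot be put down to gene length. The effective number of kappa variable genes was 27.97 and 24.3 in the rich aortas, 12.6 to 25.7 in Ad-sham2 to Ad-sham6, 9.29 to 23.9 in Ad-FAM3A1, Ad-FAM3A2, Ad-FAM3A4 and Ad-FAM3A5, and again lowest in Ad-sham1, at 3.24, and Ad-FAM3A3, at 4.32. With all aortas brought to 48 heavy chain counts, the expected number of genes was 27.3 and 24.4 in the rich aortas, 19 to 25.6 in most others, 11.1 in Ad-sham1 and 16.5 in Ad-FAM3A3. With all aortas brought to 87 kappa counts it was 34.9 and 34.2, below Ad-sham4 (37.0) and Ad-FAM3A1 (35.5), and Ad-FAM3A7 was also below Ad-sham2 (34.6). The lowest effective numbers came from 1 aorta of each treatment group.

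**Figure D4:**
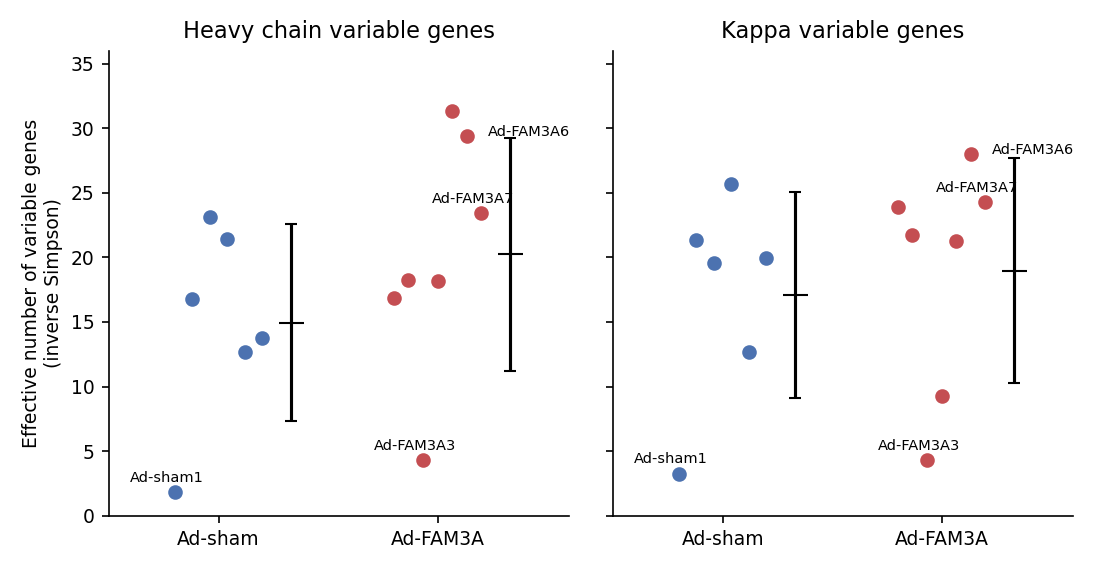
Effective number (inverse Simpson index) of heavy chain and kappa variable genes, 1 point per aorta, with the group mean ± SD beside the points (n = 6 Ad-sham, n = 7 Ad-FAM3A). Ad-sham1 and Ad-FAM3A3 are lowest on both panels, and the groups overlap.

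The groups did not differ beyond their spread in diversity. The effective number of heavy chain genes averaged 14.9 ± 7.63 in Ad-sham (n = 6) and 20.2 ± 9.04 in Ad-FAM3A (n = 7), with an exact permutation p of 0.283 and an adjusted p of 0.566. The difference of 5.31 fell to 2.69 without Ad-sham1, to 3.46 without Ad-FAM3A5 and to 2.85 without both rich aortas, and was 7.96 without Ad-FAM3A3. For kappa genes the averages were 17.1 ± 7.97 and 18.96 ± 8.71, with an exact permutation p of 0.670 and an adjusted p of 0.744. Of the 7 Ad-FAM3A aortas, 6 and 5 exceeded the respective median of the Ad-sham aortas. Without Ad-sham1 the kappa difference turned from 1.89 to -0.877, and without both rich aortas to -0.973.

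In Ad-FAM3A6 the leading heavy chain gene was Ighv1-53 with 10.1% of heavy chain variable counts (4695 counts, 309 CPM), followed by Ighv1-55 (5.59%), Ighv3-6 (5.10%), Ighv1-9 (4.82%) and Ighv9-3 (4.62%). In Ad-FAM3A7 it was Ighv3-6 with 9.75% (1234 counts, 77.1 CPM), followed by Ighv1-55 (7.08%), Ighv1-53 (7.03%), Ighv1-26 (6.82%) and Ighv1-80 (5.58%). The 5 leading genes took 30.3% and 36.3% of the counts, and 3 of the 5 were shared. At the kappa locus Igkv3-4 led in both, with 8.70% and 9.52%. Igkv1-135 (7.03%), Igkv10-96 (5.79%), Igkv3-5 (5.40%) and Igkv12-44 (4.78%) followed in Ad-FAM3A6, and Igkv10-96 (8.67%), Igkv10-94 (8.66%), Igkv4-50 (4.80%) and Igkv6-25 (4.64%) in Ad-FAM3A7. No gene reached 11% of its locus in either aorta apart from the lambda locus, which has 3 variable genes. There Iglv1 led with 74.6% and 67.4%.

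The 2 rich aortas used the variable genes in a like order. Across genes within the pair, Spearman's rho of the counts was 0.74 over 113 heavy chain and 0.76 over 102 kappa genes, given as a description because genes that share reads are not independent. The Morisita-Horn overlap, which is 1 for equal and 0 for disjoint use, was 0.743 for heavy chain genes, the highest of all pairs of aortas, whose median was 0.270. For kappa genes it was 0.698, below the 0.815 of Ad-sham3 and Ad-sham5, with a median of 0.373. The other aortas had far fewer counts, the overlap was not corrected for depth, and the effect of depth on it was not tested.

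By family, Ighv1, the largest with 53 genes, took 59.1% of heavy chain variable counts in Ad-FAM3A6 and 71.2% in Ad-FAM3A7, within the 13.1% to 78.8% of the others. The Ighv3 family was 5.56% and 10.8%, and Ighv5 was 4.99% and 2.18%. At the kappa locus Igkv3 was 22.3% and 16.9%, and Igkv4, the largest family with 26 genes, was 5.499% and 13.9%, both within the range of the others. By position, the 38 heavy chain variable genes nearest to the constant genes took 23.9% and 10.2% of the counts, and the 37 farthest took 46.1% and 48.9%. In Ad-sham1, by contrast, the 38 nearest took 83.5%.

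In Ad-sham1 the low diversity came from 1 gene per locus. Ighv5-9 had 391 of 528 heavy chain variable counts, 74.1% (70.1 to 77.6), and Igkv13-85 had 394 of 722 kappa counts, 54.6% (50.9 to 58.2). Their levels were 24.3 and 24.4 CPM. Outside Ad-sham1, Ighv5-9 had 0 counts in 8 aortas, 1 in Ad-FAM3A3, 3 in Ad-FAM3A4, 71 in Ad-FAM3A6 and 29 in Ad-FAM3A7. Igkv13-85 had 0 to 4 counts in the other aortas, except for 327 and 27 in Ad-FAM3A6 and Ad-FAM3A7. The same aorta had the highest IgM share, 93.8% (93.0 to 94.5), and, outside the rich aortas, the highest level of Jchain, 36.7 CPM, the joining chain of secreted IgM and IgA.

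In Ad-FAM3A3, Ighv1-9 had 61 of 132 heavy chain variable counts, 46.2% (37.9 to 54.7), and Igkv1-88 had 117 of 251 kappa counts, 46.6% (40.5 to 52.8). Igkv1-88 was at most 0.549% of kappa counts in the Ad-sham aortas. The next kappa genes in Ad-FAM3A3 were Igkv4-50, with 8.37%, and Igkv4-53, with 6.77%. Its IgG2b share, 15.0% (13.4 to 16.8), was the highest of all aortas, and its kappa share, 98.1%, likewise. Whether the leading heavy and light chain genes of an aorta came from the same cells was not tested, since gene counts hold no pairing and no junction.

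In the remaining 9 aortas the leading heavy chain gene took 8.33% to 21.5% and the leading kappa gene 10.99% to 29.2%. The leading heavy chain gene was Ighv7-3, Ighv1-26, Ighv2-3, Ighv5-6 and Ighv2-9-1 in Ad-sham2 to Ad-sham6, Ighv1-26 in Ad-FAM3A1, Ighv8-12 in Ad-FAM3A2, Ighv2-9 in Ad-FAM3A4 and Ighv1-82 in Ad-FAM3A5. The leading kappa gene was Igkv1-117 in Ad-sham2 and Ad-FAM3A4 and Igkv3-2 in Ad-sham3 and Ad-sham5, and another gene in each of the others. These leads rested on 4 to 51 heavy chain and 12 to 89 kappa counts. Iglv1 led the lambda locus in 12 of the 13 aortas, with 98.7% (93.1 to 99.8) in Ad-FAM3A2. In Ad-FAM3A5, Iglv3 led with 8 of 12 counts. Equal counts were found for Ighv10-1 and Ighv1-82 in Ad-FAM3A5 and for Igkv19-93 and Igkv6-15 in Ad-sham4, so those leads were shared.

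**Figure D5:**
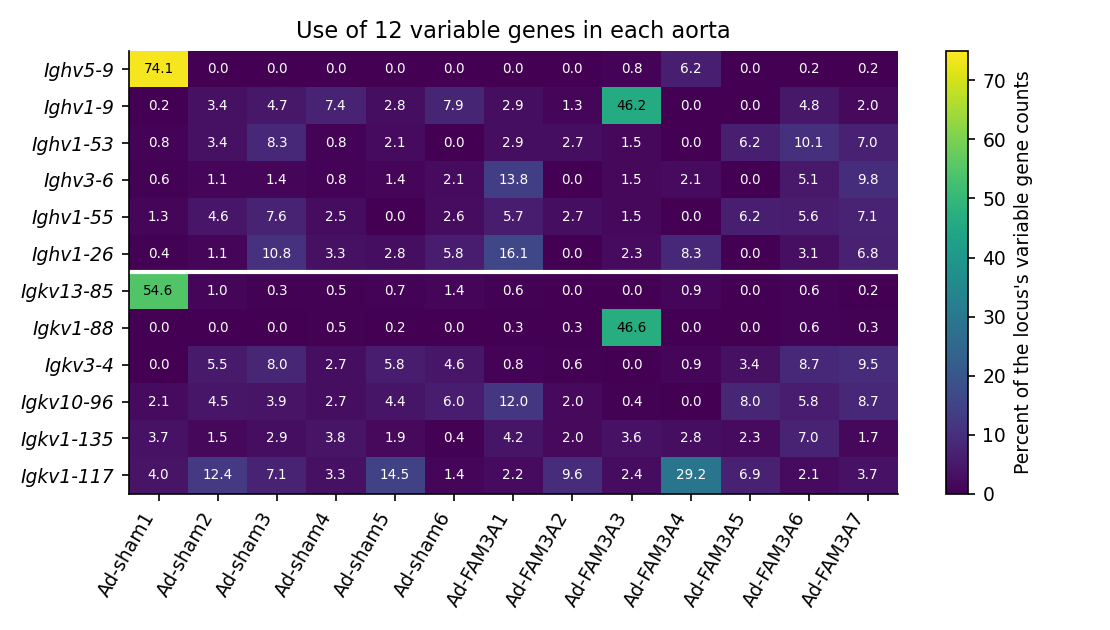
Use of 6 heavy chain genes (above the white line) and 6 kappa genes (below) in each aorta, in percent of that locus's variable gene counts. Ighv5-9 and Igkv13-85 stand out in Ad-sham1, Ighv1-9 and Igkv1-88 in Ad-FAM3A3, and no gene passes 11% in Ad-FAM3A6 or Ad-FAM3A7.

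Across all genes, the comparison of 7 Ad-FAM3A with 6 Ad-sham aortas by edgeR's quasi-likelihood test called no gene (0% of 15811 genes tested), where a call needed a fold change of more than 1 on the log2 scale together with an adjusted p below 0.05. Of the immunoglobulin genes, 18 passed the filter on low counts and 0 were called, with a smallest adjusted p of 0.810. At an unadjusted p under 0.05, 17 of the 18 were higher in Ad-FAM3A aortas, beside 2.98% of all genes tested. The median log2 fold change of the 18 was 4.99, beside 0.00319 over all genes. It was 1.33 with limma-voom and 0.25 with the replicate number as a block, each with 0 of 18 at an unadjusted p under 0.05, and 2.21 over 14 genes without Ad-FAM3A6. These values are a description, because the genes were selected on the same contrast. Of the 18, Igkv12-44, Igkv1-135 and Igkv3-4 did not pass the filter without the 2 rich aortas. Among the 18, the log2 fold change was 7.61 ± 2.33 (SE) for Ighg2c, 6.76 ± 1.92 for Ighg2b, 4.78 ± 1.57 for Igkc, 3.57 ± 1.35 for Ighm and 2.48 ± 0.999 for Igha. For Ighg2c and Igkc limma-voom gave 2.23 and 1.40, and the block 1.25 and 0.12. Without Ad-FAM3A6 and Ad-FAM3A7 the direction turned: 15 genes were tested, 13 of them were lower in Ad-FAM3A, and the median log2 fold change was -0.51, with Ighm at -1.15 ± 0.44 and Igkc at -0.72 ± 0.50. DESeq2 called 8 immunoglobulin genes, all higher in Ad-FAM3A, beside 0.0467% of the genes with an adjusted p: Ighg2c, Ighg2b, Ighv3-6, Igkv6-23, Igkv10-94, Igkv3-12, Igkv4-50 and Igkv12-38.

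Genes of B cells, and most but not all of those listed for plasma cells, were highest in the same aortas. All 10 B cell genes (among them Cd79a, part of the B cell receptor complex, and Ms4a1, a B cell surface gene) were above the other 11 aortas in both Ad-FAM3A6 and Ad-FAM3A7. Their summed level was 1063 and 439 CPM, against 10.8 to 66.0 CPM. Ms4a1 was 209 and 83.7 CPM, against 1.59 to 12.9 CPM in the others. Of the 8 plasma cell genes, 6 were likewise above the others in both. Jchain was 1614 and 399 CPM against at most 36.7 CPM, and Mzb1, a chaperone of antibody folding, was 118 and 19.9 CPM against at most 1.99 CPM. The other 2 were Irf4, a transcription factor of plasma cells and other immune cells, and Sdc1, the plasma cell surface proteoglycan CD138. Irf4 was 117 and 39.7 CPM, within 8.08 to 176 CPM, highest in Ad-FAM3A5, and Sdc1 was 53.96 and 43.7 CPM, within 24.8 to 74.3 CPM, highest in Ad-sham5. Tested by edgeR between the treatment groups, the B cell list had 10 of 10 genes higher, 10 of them at an unadjusted p under 0.05, and 0 called, and the plasma cell list 6 of 7 tested genes higher, 3 at that unadjusted p, and 0 called, with median log2 fold changes of 2.29 and 1.49 beside 0.00319 over all genes. Of all genes tested, 2.98% were higher at that unadjusted p. The counts of every list given here are a description, since they rest on the 2 aortas picked for their immunoglobulin level. The share of all genes above the other 11 aortas in both is not given here, so those counts have no background. Without both rich aortas, all 10 B cell genes were lower in Ad-FAM3A and the plasma cell list had 3 genes higher and 4 lower, with a median log2 fold change of -0.15, again with 0 called.

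Genes of antibody assembly and secretion, a list of 16 that includes all 8 plasma cell genes, were less distinct. Of the 16, 12 were highest in Ad-FAM3A6. The 6 above the other 11 in both rich aortas were the same 6 plasma cell genes, and no other gene of the list was. Derl3, of the plasma cell endoplasmic reticulum, was 34.0 and 8.80 CPM against at most 2.17 CPM, while Hspa5, the chaperone BiP that every cell uses, was 932 and 1043 CPM within 619 to 1564 CPM. By edgeR 14 of 15 tested genes were higher and 0 were called, with a median log2 fold change of 0.40. At an unadjusted p under 0.05, 6 were higher, among them the plasma cell genes Jchain, Mzb1 and Derl3, beside 2.98% of all genes tested. Without both rich aortas 11 were higher, 1 at that unadjusted p, beside 544 of 15843 genes, with a median of 0.10. Among 13 genes of recombination, class switching and hypermutation, 3 were above the others in both. For neither list is the share of all genes that did so given here. The recombinase gene Rag1 was 0 CPM in Ad-FAM3A6 (up to 0.197 CPM allowed by a count of 0) and 0.0624 CPM in Ad-FAM3A7. Its highest level, 87.8 CPM, was in Ad-sham4, whose immunoglobulin share of 0.0139% was below the median of the 11. Of the 9 tested genes of this list, 6 were higher, 3 were lower, 0 reached an unadjusted p under 0.05 by edgeR and 0 were called, with a median log2 fold change of 0.13. Without both rich aortas 4 were higher and 5 lower, 1 of these at that unadjusted p, with a median of -0.030 and 0 called.

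Among 12 receptors and carriers of immunoglobulin, 4 were above the others in both rich aortas, and the share of all genes that were is not given here. Fcmr, the IgM receptor of B cells, was 87.3 and 41.0 CPM against at most 7.22 CPM, and Fcer2a, the low-affinity IgE receptor CD23, was 46.1 and 27.2 CPM against at most 4.45 CPM. Fcgrt, the neonatal Fc receptor, which recycles IgG in many cell types, was lowest in Ad-FAM3A6, at 74.6 CPM, and 119 CPM in Ad-FAM3A7, within 88.7 to 203 CPM elsewhere. Of 11 tested, 7 were higher, 2 of them at an unadjusted p under 0.05 by edgeR, 4 were lower and 0 were called, with a median log2 fold change of 0.14, beside 2.98% of all genes higher at that unadjusted p. These 2, Fcmr and Fcer2a, are also in the B cell list. Without both rich aortas the direction turned, with 4 higher, 7 lower, 0 at that unadjusted p and 0 called, and a median of -0.27.

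By summed level, only the lymph node list among the markers of other tissue set both rich aortas apart from the other 11. Of the 6 lymph node stroma and high endothelium genes found in the table, 5 were above the other 11 aortas in both. The share of all genes that were is not given here. Cr2, among the 5, is also in the B cell list and was 113 and 52.9 CPM. Glycam1, a mucin of lymph node venules, was 75.8 and 13.2 CPM against 0 to 0.664 CPM, and Cxcl13, the B cell follicle chemokine, was 166 and 74.9 CPM against at most 37.1 CPM. The summed level of this list was 384 and 147 CPM, against 4.32 to 37.9 CPM in the others. T cell genes summed to 486 and 88.5 CPM, with Ad-sham4 at 180 CPM between them and the rest at most 40.4 CPM, and 1 of 8 was above the others in both. Of the 5 early B cell genes, 0 were above the others in both. Their sum was highest in Ad-sham4, at 128 CPM, from Rag1, Dntt and Rag2 (1428, 587 and 61 counts), which developing T cells also use, whereas the surrogate light chain genes Vpreb1 and Igll1 had 9 and 0 counts there. Cd8a, a T cell gene, had 805 counts in the same aorta. The 6 aortic smooth muscle genes summed to 2305 CPM in Ad-FAM3A6, the lowest value of all, and between 2633 and 16538 CPM in the others, with 5612 CPM in Ad-FAM3A7. By edgeR 0 genes of these 4 lists were called, out of 2, 8, 0 and 6 tested, of which 1, 1, 0 and 1 were higher at an unadjusted p under 0.05, beside 2.98% of all genes tested. Without both rich aortas the T cell list turned from 8 of 8 higher to 8 of 8 lower, with medians of 1.25 and -0.91 on the log2 scale. The 2 tested lymph node genes, Cxcl13 and the B cell gene Cr2, turned from a median of 2.20 to -0.93. With all aortas Cxcl13 was at 0.85 and Cr2 at 3.55, and only Cr2 reached that unadjusted p. The 6 smooth muscle genes were higher in both fits, with medians of 0.55 and 0.87, and 3 of them reached that unadjusted p without the rich aortas. The part of adjoining lymphoid tissue in the immunoglobulin values was not tested.

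Summed joining and D segment genes, outside the rule, followed the same order. Joining segment genes had 735 counts in Ad-FAM3A6, 256 in Ad-FAM3A7 and 0 to 25 in the others, and D segment genes 11, 3 and 0. Single joining segments did not all do so. Ighj1 had 7 counts in Ad-sham1 and Iglj3 had 6 in Ad-sham5, against 1 in each rich aorta. The ratio of heavy to light chain constant counts per kilobase was 0.543 and 0.496 in the rich aortas, within the 0.285 to 0.893 of the others.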

How the data were processed

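RNA of 13 aortas was sequenced as 150-base reads. The paper states that whole aortas were harvested and that RNA came from aortic tissue, without naming the part used for each library. The authors aligned reads to GRCm38 with Hisat2 and counted them per Ensembl gene with FeatureCounts, and the deposited counts are whole numbers without normalization. The annotation release, strand setting and handling of multi-mapping reads are not given in the sources used here, and the sources differ on the RNA and library kits. Deposited FPKM, 1 mean per group, was not used here.

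The immunoglobulin genes, the gene lists and the tests were chosen with earlier results of these data known. CPM is counts per 1000000 counts of the library. Coordinates are those of the deposited table, and all 231 genes had the same chromosome, start and end in GENCODE M21, from which sequences were read. Named genes were all constant genes, the 5 leading variable genes of each locus in Ad-FAM3A6 and in Ad-FAM3A7, the leading variable gene of every other aorta and members of the lists. For any other gene the text names, its values were known when it was picked. The smooth muscle, T cell, early B cell, lymph node, B cell, plasma cell, assembly, recombination and receptor lists were written by hand.

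Groups were compared with edgeR 4.0.16 (TMM, filterByExpr, quasi-likelihood test, Benjamini-Hochberg adjustment over all genes tested) in R 4.3.3, with DESeq2 1.42.0 and limma 3.58.1 as alternatives. In simulated counts for this comparison over 15564 genes, 152 of 200 genes changed by 2 on the log2 scale were recovered (76.0%), with 3.80% false calls. The 6 composition values were compared by exact permutation (scipy 1.17.1), where the smallest possible p is 0.00117. Ad-FAM3A6 and Ad-FAM3A7 as a pair were not tested against the other aortas, because their immunoglobulin level set them apart. Single values of every aorta were only screened within its group by Dixon's limit, as given below. Replicates are separate mice as labelled. Intervals are 95% Wilson intervals, and a count of 0 allows up to 3 counts.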

Additional observations from a re-analysis of the deposited data

Results flagged for a closer look

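In 48 groups of values examined (24 measures in 2 treatment groups), 7 values, from 4 aortas, lay far from the rest of their group, with a gap to the nearest aorta above Dixon's 95% limit. Chance gives about 1 in 20, or 2.4. The flagged levels of Ad-FAM3A6 are a description and not to be set against that number, since this aorta was picked for its immunoglobulin level. Levels were taken as log2(CPM + 1). Ighg3 in Ad-FAM3A6 was 9.39, against at most 2.81 in the other Ad-FAM3A aortas. Ighe in Ad-FAM3A6 was 2.65, against at most 0.86. The IgG3 share of heavy chain constant expression in Ad-FAM3A2 was 8.94%, against at most 2.69%, from 100 Ighg3 counts. In Ad-sham5, Ighg1 was 2.67, against 0.85 to 0.97 in the other Ad-sham aortas, the IgG1 share was 3.40%, against 0.302% to 1.11%, and Ighe was 1.15, against at most 0.40, so that IgG1 and IgE stood out together in that aorta. Igha in Ad-sham2 was 1.40, against 3.07 to 3.76. Where 2 samples of a group stand apart together, as Ad-FAM3A6 and Ad-FAM3A7 do, this measure does not mark them.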

How the results depend on the processing

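The count of immunoglobulin genes called was 0 under every alternative run except DESeq2, which called 8, and it was also 0 when each aorta in turn was left out. The numbers of genes tested and the filter change with the samples: without any filter 214 immunoglobulin genes were tested, 0 called and 164 at an unadjusted p under 0.05. All 164 were higher in Ad-FAM3A, beside 2269 of 30782 genes at that p, 1458 of them higher. This count, too, rests on the 2 aortas picked for their immunoglobulin level. At that unadjusted p, limma-voom and the fit with the replicate block gave 0 of 18, compared with 17, 6 of 14 without Ad-FAM3A6, and 3 of 15, all lower, without Ad-FAM3A6 and Ad-FAM3A7. Over all genes tested, limma-voom gave 702, the block 620 and the main fit 934 of 15811. Without Ad-FAM3A6 it was 842 of 15654, and without both 994 of 15843. The replicate numbers do not pair the aortas: 3 of 6 same-numbered pairs correlated above 0.1, 1 of 6 Ad-sham aortas correlated best with its own number, and Ad-FAM3A7 has no partner. Among the constant genes, the log2 fold change became negative with the replicate block for Ighm (-0.44), Ighg1 (-0.37), Ighd (-0.27), Iglc2 (-0.040) and Iglc3 (-0.54), and with limma-voom for Iglc3 (-0.062). Without Ad-FAM3A6 and Ad-FAM3A7 it became negative for the constant genes Igkc (-0.72), Ighm (-1.15), Ighg2c (-0.29), Ighg1 (-1.71), Ighd (-1.07), Iglc1 (-0.51), Igha (-0.053), Iglc2 (-0.54) and Iglc3 (-1.23). The variable genes Igkv1-117 (-0.56), Igkv1-110 (-0.37), Iglv1 (-0.28) and Igkv10-96 (-0.27) were then negative as well. No composition difference passed the threshold under any alternative. Leaving out each aorta in turn, the kappa variable gene difference ranged from -0.877 (without Ad-sham1) to 4.33, and the IgA share difference from -0.475 (without Ad-FAM3A1) to 1.52 percentage points. The kappa variable gene difference was -0.973 without both rich aortas. The heavy chain variable gene difference ranged from 2.69 (without Ad-sham1) to 7.96 (without Ad-FAM3A3), and the kappa share difference from 0.708 (without Ad-sham5) to 2.86 percentage points (without Ad-sham6). In the expected number of genes at the lowest depth, another measure than the effective number, the heavy chain and kappa differences were 0.969 and 0.378. The IgG share difference ranged from 11.1 to 20.7 and the IgM share difference from -17.9 to -10.2 percentage points. The cause of these changes was not tested, and Ad-sham1 and Ad-FAM3A3 as a pair and the shortest-transcript lengths were chosen for leaving out or scaling after seeing the data. Outside the rich aortas, 48 to 722 variable gene counts at the heavy chain and kappa loci limit the precision of single genes.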

Other observations

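The Ighd to Ighm ratio, in counts per kilobase of deposited length, was lowest in Ad-sham1, at 2.52%, and 3.08% in Ad-FAM3A6 and 5.26% in Ad-FAM3A7, and reached 23.7% in Ad-sham5. Ad-sham5 also had the lowest kappa share, 85.1%, and the highest lambda share of light chain variable counts per kilobase, 25.3%. Its leading heavy chain genes were Ighv5-6 (17.8%), Ighv1-5 (16.7%) and Ighv5-17 (10.1%). Pigr, which carries IgA across epithelia, was 0 to 10.2 CPM over the 13 aortas, highest in Ad-sham6 and Ad-FAM3A1, and Igha was highest outside the rich aortas in Ad-FAM3A1, at 25.3 CPM.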
